A study of Mus musculus with 4 samples.

Results

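Haem, the iron-bearing ring of haemoglobin and of the cytochromes, is made by a chain of enzymes split between mitochondria and cytosol, and the genes of that chain were followed here in mouse bone marrow cultured towards osteoclasts. The gene set holds 9 members, chosen by name: Alas1, Alas2, Alad, Uros, Urod, Cpox, Ppox, Fech and the mitochondrial iron carrier gene Slc25a37. They are 9 of the 18193 genes that a probe set of the array names on its own, and 20 of its 45101 probe sets report them.

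The marrow donors were 12-week-old female C57Bl/6J mice, and 1 Affymetrix array was hybridised at each of 4 times. Day 1 is fresh marrow on the day of extraction. Day 4 is marrow after 3 days in a-MEM with 10% FBS and 10 nM vitamin D3. Days 5 and 7 were labelled with 4 and 6 days of differentiation; after the first 3 days the medium also held M-CSF at 20 ng/ml, a growth factor of macrophages, and RANKL at 40 ng/ml, which signals precursors to become osteoclasts. No array of days 5 or 7 lacked these cytokines, so their effect and that of time in culture cannot be told apart. On day 4 over day 1, the effects of vitamin D3, serum and time in culture likewise cannot be told apart. The labels do not give the number of mice or cultures. All 4 samples are labelled as primary osteoclasts. On day 1 the osteoclast genes Calcr, Dcstamp, Ocstamp and Oscar, 4 of 11 osteoclast markers, were at background level. The rest of the list was above it, with Mmp9 at 4173, Acp5 at 2604 and Ctsk at 568. With 1 array a day there is no replicate and no test, and each value describes these arrays only.

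The first enzyme of the pathway joins glycine to succinyl-CoA and limits its rate. It has a form made in red cell precursors, encoded by Alas2, and a form made in most cells, encoded by Alas1. The later enzymes are shared by all tissues, and red cell precursors carry far more of them because they fill with haemoglobin. Osteoclasts are rich in mitochondria, whose respiratory chain also needs haem.

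Values are array signals on a linear scale, which can be compared between days for a probe set but not between probe sets. The floor was 32.4, the median over the probe sets that are not controls, and signals under it were read as background. Calls rest on size alone, from 2-fold upwards. Where 1 of the days was at the floor the fold is a lower bound. Each gene stands by its brightest probe set. Of the 20 probe sets of the members, 13 were above the floor on all arrays, 2 on some and 5 on none, and each member had at least 1 probe set above the floor. As technical yardsticks on day 4 over day 1, the log2 differences had an SD of 0.17 over 18 spiked controls and a pooled SD of 0.41 over probe sets for the same gene; neither covers variation between cultures.

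Between fresh marrow and day 4 the pathway divided. Of the 9 members, 5 were at least 2-fold lower on day 4, none was higher, and 4 were neither. For comparison, 8.65% of the 11981 genes above the floor on either day were called lower and 10.0% were called higher. The lower members were Alas2, Slc25a37, Fech, Ppox and Urod, and the others were Alas1, Alad, Uros and Cpox. The median log2 difference of the members was -1.00, with Alas2 at its bound, against 0.05 for the 10612 genes above the floor on both days. Counted by probe set, 9 of the 15 above the floor were at least 2-fold lower, where 10.9% of all probe sets were.

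**Figure D1:**
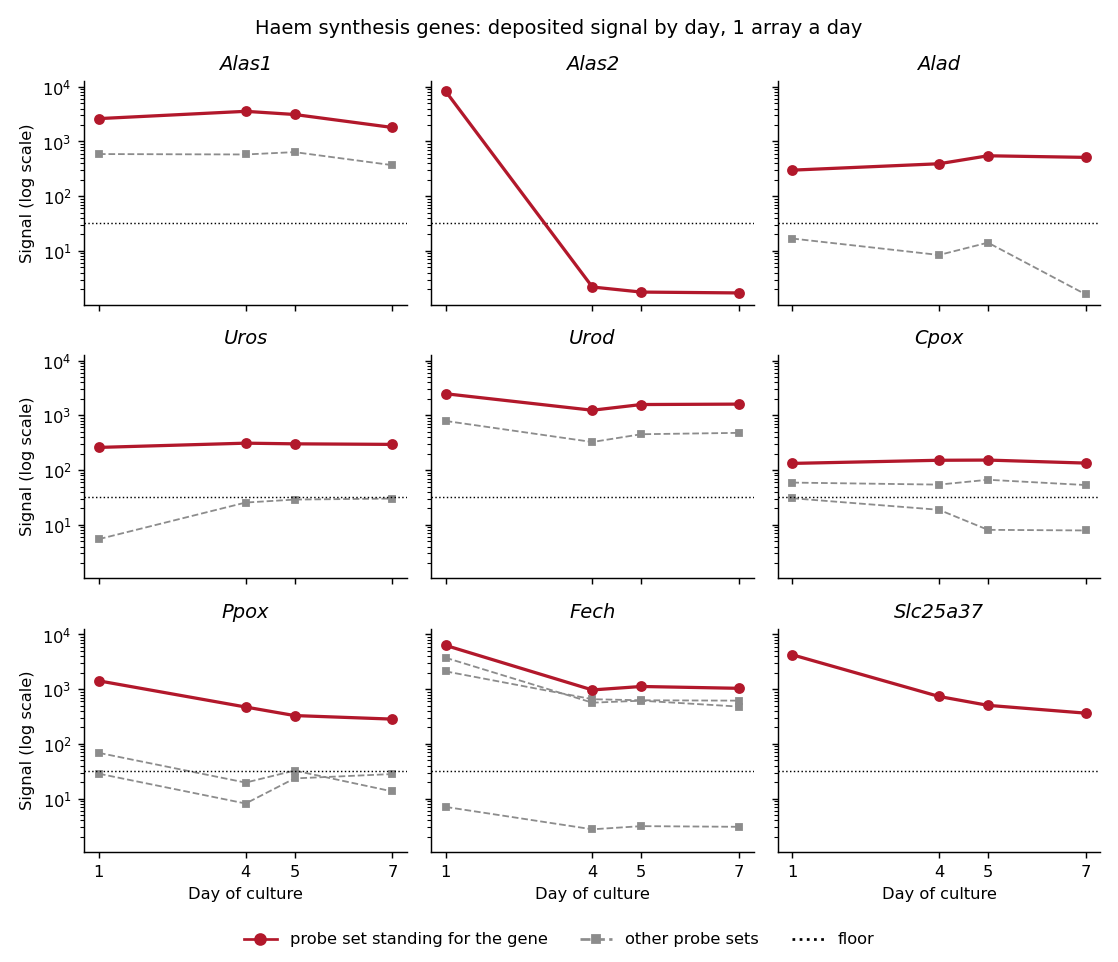
Signal of each probe set of the 9 genes (log scale) against the day of culture, with 1 array a day. Red lines are the probe set that stands for the gene, grey dashed lines the others, and the dotted line is the floor of 32.4; the red lines of Alas2, Ppox, Fech and Slc25a37 drop between days 1 and 4, and those of Uros and Cpox are nearly level.

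Alas2, the red cell form of the first enzyme, had a signal of 8302 on day 1 and of 2.19, 1.77 and 1.71 on days 4, 5 and 7. The day 4 signal was at least 256-fold below that of day 1, and the later days lie under the floor, so no order among them can be read.

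Alas1, the form of other cells, had signals of 2620.2, 3559, 3115 and 1804 on days 1, 4, 5 and 7. It was highest on day 4 and lowest on day 7, and no step between neighbouring days reached 2-fold. Its log2 difference was 0.44 on day 4 over day 1, and a second Alas1 probe set gave -0.03, with signals of 589.6, 579, 639.9 and 369.5. Both probe sets were lowest on day 7.

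Fech encodes ferrochelatase, which puts iron into the ring at the last step, in the mitochondrion. Its signal was 6322 on day 1 and 969.9, 1122 and 1038 on days 4, 5 and 7. It was 6.52-fold lower on day 4 than on day 1. A pair of further Fech probe sets were lower as well, by 6.62-fold (568 on day 4 against 3759 on day 1) and by 3.23-fold (657 against 2119.5), and the last was at the floor throughout. Unlike Alas2, Fech stayed well above the floor, at 15.3%, 17.7% and 16.4% of its day 1 signal on days 4, 5 and 7.

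Slc25a37 encodes mitoferrin-1, which brings iron into the mitochondria of red cell precursors. Its signals were 4256, 737, 507 and 365 on days 1, 4, 5 and 7, each lower than the one before. The day 4 signal was 5.77-fold below that of day 1. This gene rests on 1 probe set, since another that also names a neighbouring transcript was left out.

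Ppox encodes protoporphyrinogen oxidase, the enzyme before ferrochelatase. Its signals were 1421, 473, 330.1 and 284 on days 1, 4, 5 and 7, again lower at each time. It was 3.00-fold lower on day 4 than on day 1, and a dim second probe set, at 68.7 on day 1 and under the floor on day 4, had a log2 difference of -1.08 as a bound. With the mean over its 3 probe sets, 1 of them at the floor on every array, the difference was -0.89 and under 2-fold.

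Urod encodes uroporphyrinogen decarboxylase, a cytosolic enzyme. Its signals were 2484, 1240.3, 1577 and 1604 on days 1, 4, 5 and 7. The day 4 difference, -1.00 on the log2 scale, lies at the threshold, and with 16 added to each signal in place of the floor it was -0.99 and not called. The second probe set was 2.43-fold lower, at 326 on day 4 against 790.2 on day 1. On both, days 5 and 7 were above day 4, by less than 2-fold.

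The remaining enzymes showed no such drop. Alad encodes the cytosolic enzyme that joins 2 molecules of aminolaevulinic acid, and its signals were 299.5, 392, 548 and 513 on days 1, 4, 5 and 7. All cultured arrays were above fresh marrow for Alad, with a log2 difference of 0.39 on day 4 over day 1. Uros encodes uroporphyrinogen III synthase, with signals of 259.6, 310.3, 302 and 295, a highest over lowest ratio of 1.20. Cpox encodes coproporphyrinogen oxidase of the mitochondrial intermembrane space, with signals of 132, 151, 152 and 134 and a ratio of 1.15. Both were nearly level over the culture; a dimmer Cpox probe set, at 59.1, 54.3, 66.5 and 53.3, gave the opposite sign on day 4 over day 1 (-0.12 against 0.19).

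Promoter sequence was available from RefSeq (GRCm38.p6) for 7 of the 9 members, in 10 windows. Fech and Slc25a37, both lower on day 4, had no window and were not searched. The 250 bases before each start were searched on both strands for GATAA, letters read by GATA factors such as the red cell regulator GATA1. They occurred in 3 of the 10 windows, at Alas2, Cpox and an inner start of Uros, and in 22.6% of 32851 windows of all genes. Those 3 are shown because their genes behaved differently: Alas2 was at least 256-fold lower on day 4, while Cpox and Uros differed by log2 values of 0.19 and 0.26. Capitals mark TTATC, the reverse complement of GATAA, and each sequence ends at the base before the start. Their positions are chrX:150547167-150547416 on the plus strand for Alas2, chr16:58669958-58670207 on the plus strand for Cpox and chr7:133702501-133702620 on the minus strand for Uros.
Alas2: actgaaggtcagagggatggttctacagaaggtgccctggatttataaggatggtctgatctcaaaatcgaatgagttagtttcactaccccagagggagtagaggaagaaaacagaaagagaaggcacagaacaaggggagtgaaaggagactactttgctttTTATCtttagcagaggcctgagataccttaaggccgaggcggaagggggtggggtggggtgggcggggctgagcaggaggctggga
Cpox: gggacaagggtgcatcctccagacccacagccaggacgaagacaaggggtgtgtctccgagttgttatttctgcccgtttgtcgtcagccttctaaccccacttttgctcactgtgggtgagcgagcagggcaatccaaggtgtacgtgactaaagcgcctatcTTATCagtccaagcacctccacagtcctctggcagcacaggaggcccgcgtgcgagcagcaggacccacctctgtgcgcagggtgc
Uros: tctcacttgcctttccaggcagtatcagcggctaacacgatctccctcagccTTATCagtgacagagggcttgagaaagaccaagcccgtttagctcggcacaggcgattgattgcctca

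In Alas2 and Cpox alike the match lay 82 bases before the start, and in Uros 64 bases. Neither of the windows of Alas1 held GATAA. The last 120 bases before its outer start, at chr9:106247955-106248074 on the minus strand, are shown beside those of Alas2 because the pair encode forms of the same enzyme; they have no capitals since they hold no match.
Alas1: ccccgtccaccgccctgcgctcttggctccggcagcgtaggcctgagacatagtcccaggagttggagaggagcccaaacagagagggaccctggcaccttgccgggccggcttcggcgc

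The letters CACCC, read by KLF factors such as the red cell regulator KLF1, were in 5 of the 10 windows, with 3 matches at Alas2 and 4 at Cpox, and in 52.0% of all windows. Urod and Ppox, both lower on day 4, had neither motif in their windows. These matches describe the letters of the windows and say nothing of binding.

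The drop on day 4 went with that of red cell markers. Of 13 red cell markers above the floor, 12 were lower on day 4 by 2-fold or more and none was higher, with a median log2 difference of -4.50 that counts 9 genes at their bound. The summed signal of the 14 genes was 22608, 584, 583 and 506 on days 1, 4, 5 and 7, and 1, 10, 10 and 11 of them were at the floor. Slc4a1, the anion exchanger of red cells, had 1.52 on day 4 against 6536 on day 1, Trim10 had 15.8 against 2151, and the globin gene Hbb-b2 had 0.49 against 1962, a probe set that its near-identical neighbour gene may share. Epor was the 1 marker above the floor that was not called, at 108 against 109. Hba-a1 was at the floor on all arrays, fresh marrow included. Bpgm, an enzyme of red cell glycolysis, kept 179 against 7724. The part of these cells in the results above was not tested. In such bulk samples fewer cells of a type and less RNA per cell cannot be told apart.

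Other cell types moved over the same interval. Stromal markers were higher on day 4 for 9 of 9 genes, osteoclast markers for 8 of 10 and macrophage markers for 5 of 11. In contrast, 6 of 10 neutrophil and 5 of 7 B cell markers were lower. Of all genes 10.0% were called higher and 8.65% lower. None of 7 megakaryocyte markers reached 2-fold. Which cells gave the remaining signal of Fech, Ppox and Urod was not tested.

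**Figure D2:**
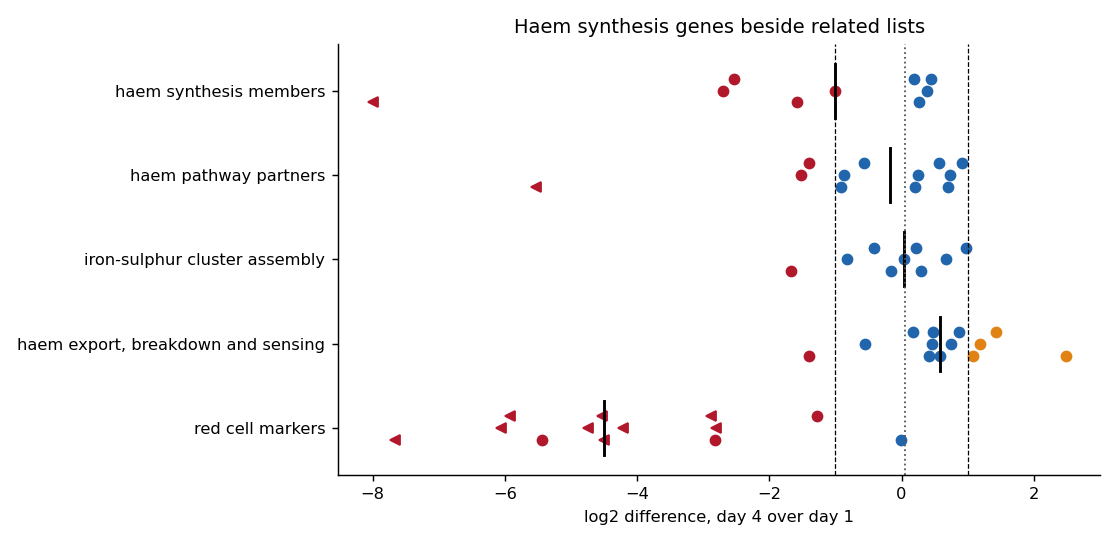
Log2 difference of day 4 over day 1 for the genes of 5 lists. Each point is a gene, triangles are bounds, red is at least 2-fold lower, orange at least 2-fold higher and blue neither; black bars are list medians, dashed lines 2-fold and the dotted line the median of all genes. The median of the haem synthesis genes (-1.00) lies between those of the red cell markers (-4.50) and the pathway partners (-0.18), while its single genes run from -8.00, a bound for Alas2, to 0.44.

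Of 12 listed partners above the floor, genes that feed or carry the pathway, 3 were called lower on day 4, none was higher and 9 were neither, beside 8.65% of all genes lower. Their median log2 difference was -0.18, against 0.05 for all genes. Tspo2, a red cell relative of the mitochondrial outer membrane protein TSPO, was at least 46.1-fold lower, at 13.9 on day 4 against 1496 on day 1. Abcb10, a transporter of the inner mitochondrial membrane that stabilises mitoferrin-1 in mice, was 2.86-fold lower (267 against 763). Slc6a9, the glycine transporter of the plasma membrane, was 2.65-fold lower (116 against 308). On the other side Clpx, whose product activates ALAS in the mitochondrion, had a log2 difference of 0.92, under 2-fold.

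Iron-sulphur clusters stabilise ferrochelatase. Of 9 genes for their assembly above the floor, 1 was called lower on day 4 and none higher, close to the 8.65% of all genes called lower. The lower gene was Isca1, by 3.19-fold (1424 against 4535). Hspa9, the mitochondrial chaperone of the assembly, had a log2 difference of 0.98, the desulphurase gene Nfs1 of 0.67 and the co-chaperone gene Hscb of -0.82. The median of the list was 0.03.

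With M-CSF and RANKL added, no member passed 2-fold by day 5. On day 5 over day 4, 8 members were above the floor, none was called in either direction, and their median log2 difference was -0.01 against 0.06 for all genes. The shares of all genes called were 2.02% higher and 4.04% lower. The largest differences were those of Slc25a37 (-0.54), Ppox (-0.52), Alad (0.48) and Urod (0.35). The pooled SD between probe sets was 0.29 for this comparison.

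Day 7 over day 5 again had none of 8 members past 2-fold, with a median of -0.15 against -0.11 for all genes. The shares of all genes called were 0.853% higher and 5.84% lower. The largest difference was that of Alas1, -0.79 on both of its probe sets, at 1804 on day 7 against 3115 on day 5 for the brighter one. Slc25a37 followed with -0.47, and the other 6 lay between -0.22 and 0.03. The median of all genes depended on scaling, being 0.03 with quantile normalization and 0.06 with median scaling. Relative to it the Alas1 difference was -0.68 as deposited and -0.71 and -0.68 with these scalings.

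Over the whole time with both cytokines, day 7 over day 4, Slc25a37 was the 1 member called, 2.02-fold lower. Of all genes 9.12% were called lower and 3.12% higher. The higher ones made up 25.5% of all calls, a share that became 43.8% with quantile normalization and 39.9% with median scaling. The Slc25a37 call lies at the threshold, and its log2 difference of -1.01 became -0.89 and -0.85 under these scalings. Alas1, at -0.98, was just under 2-fold and at -1.02 just over it after quantile normalization, while its second probe set gave -0.65. Ppox had -0.73, Urod 0.37 and Alad 0.39, and Fech, Uros and Cpox lay between -0.17 and 0.10. Over this interval 6 of 7 megakaryocyte markers and 10 of 10 neutrophil markers were at least 2-fold lower, and their part in the differences of Slc25a37 and Alas1 was not tested.

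**Figure D3:**
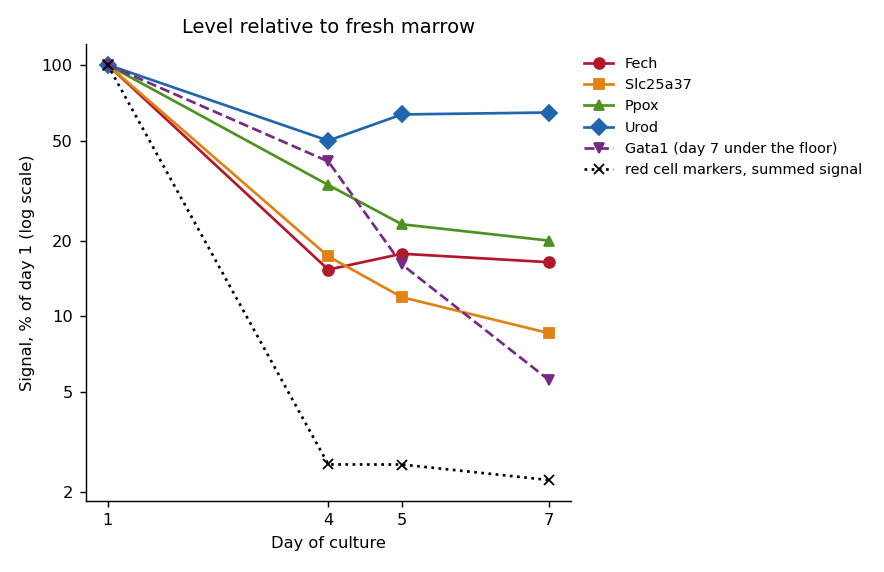
Signal as a percentage of day 1 (log scale) against the day of culture for Fech, Slc25a37, Ppox and Urod, for the red cell and megakaryocyte regulator gene Gata1 and for the summed signal of 14 red cell markers. On day 7 the 4 haem genes stood at 16.4%, 8.58%, 20.0% and 64.6% of day 1. The markers' sum, which rests mostly on its brightest genes, was 2.58% on day 4, with 10 of the 14 at the floor. Single markers differed from the sum. Ank1, the red cell ankyrin gene among the 14, stood at 14.1% on day 4 and 19.1% on day 7.

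Among the members called lower on day 4, Slc25a37 alone was called again on day 7 over day 4, and the others are given as values. Slc25a37 stood at 17.3%, 11.9% and 8.58% of its day 1 signal on days 4, 5 and 7, and Ppox at 33.3%, 23.2% and 20.0%. Urod stood at 49.9%, 63.5% and 64.6%. Gata1, named here after its values were seen, had signals of 317, 131, 50.9 and 17.7 on days 1, 4, 5 and 7, a stepwise decline in which the last value is under the floor. Klf1, a further red cell regulator named after its values were seen, was under the floor from day 4 on, at 20.5 against 238 on day 1.

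At the endpoint, day 7 over day 1, 4 of 9 members were at least 2-fold lower and none was higher, where 16.2% of all genes were called lower and 12.7% higher. Higher genes made up 43.9% of all calls on the deposited scale, 56.3% with quantile normalization and 53.1% with median scaling. Slc25a37 was 11.7-fold lower, Fech 6.09-fold, Ppox 5.00-fold and Alas2 at least 256-fold. Urod, called on day 4, was 1.55-fold lower on day 7 than on day 1 and no longer called. Alad was 1.71-fold higher, the largest positive difference among the members, and Alas1 was 1.45-fold lower. On the log2 scale these were 0.78 and -0.54, beside a pooled SD between probe sets of 0.53 for this comparison. The log2 differences of Uros and Cpox were 0.18 and 0.02.

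**Figure D4:**
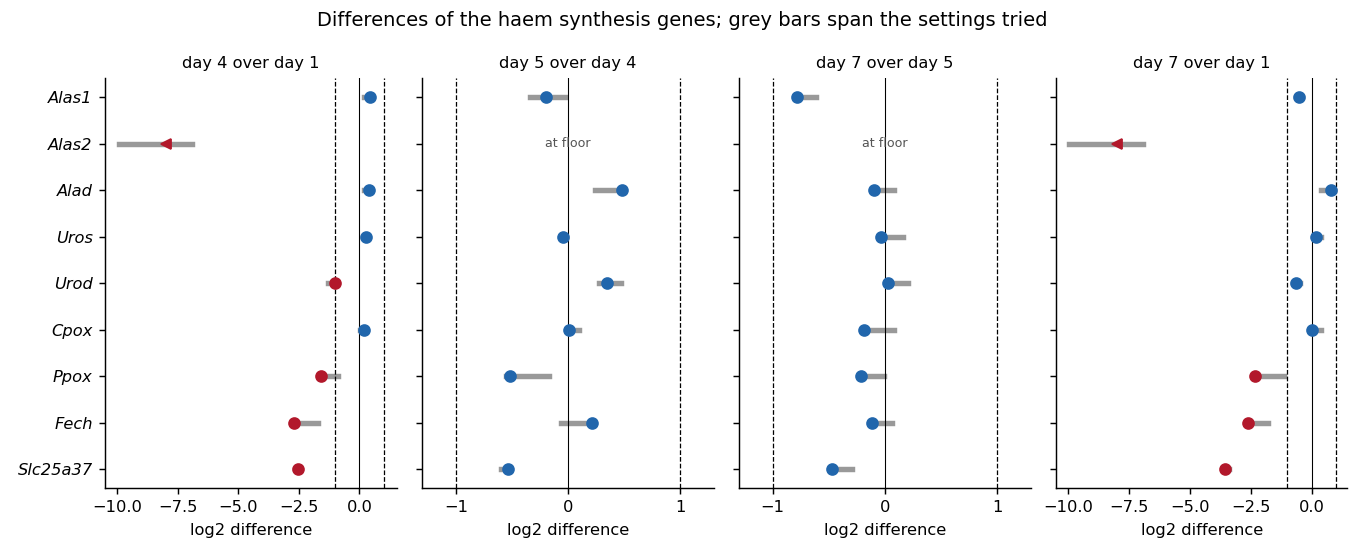
Log2 differences of the 9 genes in 4 comparisons. Points are the values reported, red where at least 2-fold and blue otherwise, the triangle is a bound, grey bars span the 7 or 8 settings tried, and dashed lines mark 2-fold. Red points appear in the comparisons with day 1 and in neither of the steps after day 4.

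At the endpoint 2 of 12 partner genes were called higher, 3 lower and 7 neither, beside 12.7% of all genes higher and 16.2% lower. Suclg1 and Suclg2, subunits of the enzyme that interconverts succinyl-CoA and succinate, were 2.09-fold and 2.08-fold higher on day 7 than on day 1, while Tspo2, Slc6a9 and Abcb10 were lower, the last by 2.44-fold. Of the iron-sulphur genes Hspa9 and Nfs1 were 2.62-fold and 2.24-fold higher and Isca1 was 2.30-fold lower. The median log2 difference was 0.04 for the 12 partners and 0.52 for the 9 iron-sulphur genes, against 0.03 for all genes and -0.63 for the 9 members.

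The genes whose course over the 4 arrays was most like a member's were found by the root mean square distance between centred log2 signals, with floored values. Unnamed transcripts and all symbols beginning with Igh, Igk, Igl, Tra or Trb were left out first. The numbers of genes searched count those that remained. Among 11832 genes, the 5 nearest to Alas2 were Slc4a1 (0.15), Epx (0.73), Trim10 (0.84), Hbb-b2 (0.90) and Tspo2 (1.07). All of them were above the floor on day 1 only, so this distance compares no more than their height on that day. Epx encodes the peroxidase of eosinophils, itself a haem protein.

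For the others the search ran over the 9717 remaining genes above the floor on all arrays. Nearest to Fech were Mkrn1 (0.10), Fbxo30, the red cell ankyrin gene Ank1, Dhrs11 and the pyrimidine nucleotidase gene Nt5c3 (0.16). Nearest to Slc25a37 were the kinase gene Pim1 (0.13), Gpcpd1, the immediate early gene Nr4a1, Adpgk and Sh2d3c (0.17). Nearest to Alas1 were the adenylyl cyclase gene Adcy6 (0.02), Emilin1, Strn4, Fam120c and Knop1 (0.05). With 4 arrays many genes have a like course, and the names describe these arrays only.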

How the data were processed

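Per the labels' protocols, biotinylated cRNA was made from 250.0 ng of total RNA. The deposited values are array intensity, not logged, 1 value for a probe set. GCOS 1.4 and MAS5 appear in the submitters' processing notes; no scaling target is given in the sources used here, and detection calls were not used. Groups are the days in the labels. After removal of 64 controls, signals under the floor (32.4) were raised to it, and log2 differences were taken for 5 comparisons. Gene symbols come from the platform annotation: 34945 probe sets had 1 symbol, 932 several and 9160 none, and only the first kind was named. One listed partner gene is not reported here.

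The members and gene lists were chosen with earlier results of these data known. Named are every member and, of each partner list and the red cell markers, up to 4 genes with the largest differences in a comparison. The 5 genes most like Alas2, Alas1, Fech and Slc25a37 are named too. Calls outside the 4 of a list, and other markers, were named after their values were seen. Alternatives were floors at the 25th and 60th percentile (8.43 and 68.9), 16 added in place of a floor, quantile normalization, median scaling, the mean over probe sets, leaving out probe sets with the suffixes _s_at, _x_at and _a_at, and, added after seeing the data, calls at 1.5-fold and 3-fold. The calling was tested on simulated data with 3-fold changes in genes well above the floor. That test does not cover calls near 2-fold or at the floor. Its simulated noise was also smaller than the pooled SD between probe sets in each comparison. The number of arrays limits the precision. The software was numpy 2.4.6, pandas 2.3.3 and matplotlib 3.10.9 under Python 3.11.15.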

Additional observations from a re-analysis of the deposited data

How the results depend on the processing

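Of 282 differences of single members under the other settings, 276 stayed on their side of 2-fold and none that was called changed sign; the 5 lost calls were those of Ppox, Urod and, under 3 settings, Slc25a37 given with the results or here (Slc25a37 with 16 added, -0.98), and the 1 gained was that of Alas1. Without _s_at, _x_at and _a_at probe sets, Alas2, Alad and Slc25a37 had no probe set above the floor, and of the other 6 members 3 were lower on day 4 over day 1 (median -0.54), 2 at the endpoint and 0 on day 7 over day 4; the partners' median on day 4 over day 1 was -0.86 over 9 genes. The single member lower on day 7 over day 4 also became 0 with 16 added, with median scaling and at 3-fold, and 3 at 1.5-fold. At 1.5-fold, 1 member was higher at the endpoint (day 7 over day 1), and 1 was lower from day 5 to day 7, where none was at 2-fold. Over all genes on day 7 over day 5, 99 were higher and 678 lower as deposited, 197 and 424 after quantile normalization and 183 and 491 after median scaling; on day 7 over day 4 the higher genes were 367, 573 and 548. The bound of Alas2 moves with the floor, from -6.91 to -9.94. No paired analysis was possible because each day had 1 array, and none could be left out.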

Other observations

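Of 13 genes that export, break down or sense haem and were above the floor, 4 were at least 2-fold higher on day 4 than on day 1, 1 was lower and 8 were neither, beside 10.0% of all genes higher and 8.65% lower. Their median log2 difference was 0.58. The haem-binding protein gene Hebp2 was 5.60-fold higher (203 on day 4 against 36.3 on day 1), the haem chaperone gene Pgrmc1 2.69-fold (2653 against 987) and Hebp1 2.27-fold (1743 against 766). Hmox1, which encodes the inducible haem oxygenase, was 2.12-fold higher, with signals of 4341, 9199, 9202 and 5808 on days 1, 4, 5 and 7. The lower gene was Eif2ak1, which encodes the haem-regulated kinase that slows globin translation when haem is short, at 253 on day 4 against 667 on day 1. On day 7 over day 1, 3 of 13 were higher and 2 lower, where 12.7% and 16.2% of all genes were, and on day 7 over day 4 the median log2 difference was -0.12. On day 7 over day 1 Blvra, a biliverdin reductase, was 2.06-fold higher and Bach1, the haem-sensing repressor of Hmox1, 2.08-fold lower. Slc48a1, which carries haem out of the lysosome, was 2.04-fold lower on day 7 than on day 4. Macrophages handle haem from red cells they take up, and the summed signal of 11 macrophage markers was 43219, 76158, 71307 and 74865 on days 1, 4, 5 and 7; its part in these values was not tested.

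A second Uros probe set lay under the floor on every array, at 5.48, 25.5, 28.9 and 30.1 on days 1, 4, 5 and 7, and a second Alad probe set at 16.9, 8.44, 14.2 and 1.61.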
